A study of Mus musculus with 8 samples.

Results

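The genes described here are 7 rows chosen by name from a deposited table of mouse islet gene expression, which holds 46955 rows with unique names. They encode hormones of the less common islet cell types, namely somatostatin (Sst), pancreatic polypeptide (Ppy), peptide YY (Pyy), ghrelin (Ghrl) and neuropeptide Y (Npy), together with Hhex and Pdyn, which were listed as delta cell genes. All 7 were found and all 7 passed the filter on low values. The choice was made with earlier results of these data known.

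The study measured RNA in 8 libraries of cells sorted from the islets of adult mice. The animals carried a red nuclear protein under the Ins1 promoter (Ins1-H2b-mCherry), a Cre recombinase under the glucagon gene (Gcg-cre) and a floxed yellow fluorescent protein that this Cre switches on in alpha cells and their descendants. Beta cells were sorted for the red reporter (3 libraries, 2 female and 1 male), alpha cells for the yellow label (3 libraries, 1 female and 2 male), and the cells called transdifferentiated carried both marks (2 libraries, 1 female and 1 male). Each library came from pooled islets of several animals of 1 sex, cultured overnight before the sort. The labels do not say whether the libraries of a group came from separate pools. The titles of beta replicates 1 and 2 differ only by a letter b, as do those of alpha replicates 1 and 2. Each of these pairs may be repeat preparations of 1 pool, so the 3 libraries of a group may not be independent. The p-values below measure the spread between the libraries of a group, which may be technical. The alpha and beta libraries had been deposited before, so an earlier preparation of those groups and the cell type cannot be told apart in comparisons with the transdifferentiated cells.

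Each minor islet cell type is known for 1 hormone. Delta cells release somatostatin, which inhibits insulin and glucagon release through receptors on neighbouring beta and alpha cells, and they need the transcription factor Hhex to keep their identity. PP cells, also called gamma cells, release pancreatic polypeptide, which belongs to the same peptide family as peptide YY and neuropeptide Y, and epsilon cells release ghrelin. Dynorphins, the opioid peptides cut from the Pdyn precursor, act on the kappa opioid receptor.

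The stretches just before the transcript starts are shown because Sst, Ppy and Pyy were higher in alpha and transdifferentiated than in beta cells, whereas Npy, the close relative of Ppy and Pyy, was not. They come from RefSeq promoters of build GRCm38.p6, in which all 7 genes were matched by symbol, and cover the 100 bases before the start, 5′ to 3′ on the gene's strand. Sst lies at chr16:23890845-23890944 (minus strand), Ppy at chr11:102101320-102101419 (minus), Pyy at chr11:102107833-102107932 (minus) and Npy at chr6:49822610-49822709 (plus). Capitals mark matches to any of 3 motifs searched on both strands: TGACGTCA, the cyclic AMP response element, TATAA, the core of the TATA box, and TAAT, the core of many homeodomain sites, of which the last 2 can overlap each other.
Sst: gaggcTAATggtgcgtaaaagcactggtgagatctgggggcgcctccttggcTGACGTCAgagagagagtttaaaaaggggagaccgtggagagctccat
Ppy: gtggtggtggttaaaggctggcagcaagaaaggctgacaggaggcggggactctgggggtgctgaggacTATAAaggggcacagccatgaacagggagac
Pyy: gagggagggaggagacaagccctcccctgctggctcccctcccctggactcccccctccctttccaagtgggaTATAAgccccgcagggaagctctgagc
Npy: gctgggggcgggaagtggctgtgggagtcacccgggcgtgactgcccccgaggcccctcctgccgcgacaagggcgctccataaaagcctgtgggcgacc

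In the 250 bases before each start, TGACGTCA was found in 1.55% of 32851 RefSeq promoters, TATAA in 22.8% and TAAT in 54.9%. Sst held TGACGTCA from 48 bases before its start and TAAT from 95 bases before it. Ppy and Pyy each held TATAA, from 31 and 27 bases before the start. None of the 3 motifs was found as an exact match in this window of Npy, and similar stretches were not searched in any gene. Pdyn held TAAT from 129 and from 58 bases before a start, and Hhex and Ghrl held none of the motifs. Whether the motifs bear on the levels was not tested. Ppy and Pyy are neighbours on chromosome 11, on the same strand and 5356 bases apart (GENCODE M21), with Ppy at 102099930 to 102101319 and Pyy at 102106676 to 102107832. The other genes are on separate stretches: Sst on chromosome 16 (23889573 to 23890958), Npy and Ghrl on chromosome 6 (49822710 to 49829507 and 113716119 to 113719880), Hhex on chromosome 19 (37434810 to 37440731) and Pdyn on chromosome 2 (129686565 to 129699844).

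Levels are RPKM, reads scaled to gene length and library size, as the authors computed them. Whole reads could be recovered from the steps of these values. Their totals were 1241479 and 2162813 for the transdifferentiated libraries, against 12887920 to 21351023 for the other 6. Values of low genes in the transdifferentiated cells therefore rest on few reads. On simulated reads at these depths the test called more unchanged genes than its threshold allows in both comparisons of the transdifferentiated cells. These were 48 of 189 calls against beta cells and 81 of 239 against alpha cells. Adjusted p-values for the transdifferentiated cells may therefore be too small. In alpha against beta cells 1 of 158 calls was of an unchanged gene. The simulated libraries were independent, so they cannot show the effect of repeat preparations of 1 pool on any comparison. Differences were tested with limma on log2(RPKM + 0.5) over 13172 genes, with cell group and sex as terms, and a gene was called at a Benjamini-Hochberg adjusted p under 0.05. Log2 fold changes are on that scale, which understates changes of low genes. The sorted types carried their defining hormones: Ins2 was at 115974 to 157458 RPKM in beta and 820 to 1088 in alpha libraries, and Gcg at 170137 to 196491 in alpha and 478 to 1773 in beta libraries.

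The 7 genes fell into 3 patterns. Sst, Ppy and Pyy were high in alpha and transdifferentiated cells and lower in beta cells, Hhex lay the same way at a low level, and Ghrl was near the limit of detection with its highest values in alpha cells. Pdyn and Npy ran the opposite way, highest in beta cells and near 2 RPKM in alpha cells, so their levels here do not follow a listing as genes of minor cell types. No delta, PP or epsilon cells were sorted. Against beta cells, alpha cells were higher for 4 of the 7 genes (Sst, Ppy, Pyy and Ghrl) and lower for 2 (Npy and Pdyn), where 16.9% and 26.7% of all genes tested were called higher and lower (43.6% in all). Transdifferentiated cells were higher than beta cells for 3 (Sst, Ppy and Pyy) and lower for 0 (limma voom called 3, and 4 of the 7 were below an unadjusted p of 0.05), where 9.10% of all genes were called higher and 2.90% lower (12.0% in all). They were higher than alpha cells for 2 (Npy and Pdyn) and lower for 0 (limma voom called 1, and 2 were below an unadjusted p of 0.05), where 23.2% of all genes were called higher and 6.67% lower (29.9% in all). Ghrl entered the test only through alpha replicates 1 and 2, the group in which it is high, so its call supports nothing by itself. Each pair of these comparisons shares the libraries of 1 group. Both transdifferentiated libraries, alpha replicate 1 and beta replicate 1 have titles without a letter b that the other 4 titles carry and the labels do not explain, and alternatives with this letter as a term are given where they change a call. The median log2 fold change of the 7 genes was 1.41 for alpha against beta, 1.80 for transdifferentiated against beta cells and 0.80 for transdifferentiated against alpha cells, beside -0.05, 0.09 and 0.17 over all genes. The median of 1.41 is the value of Ghrl itself, so it is no support for a shift of the 7 genes. Over all genes the calls against beta cells in the transdifferentiated group, 1198 higher and 382 lower, became 842 and 938 with median-ratio scaling.

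**Figure D1:**
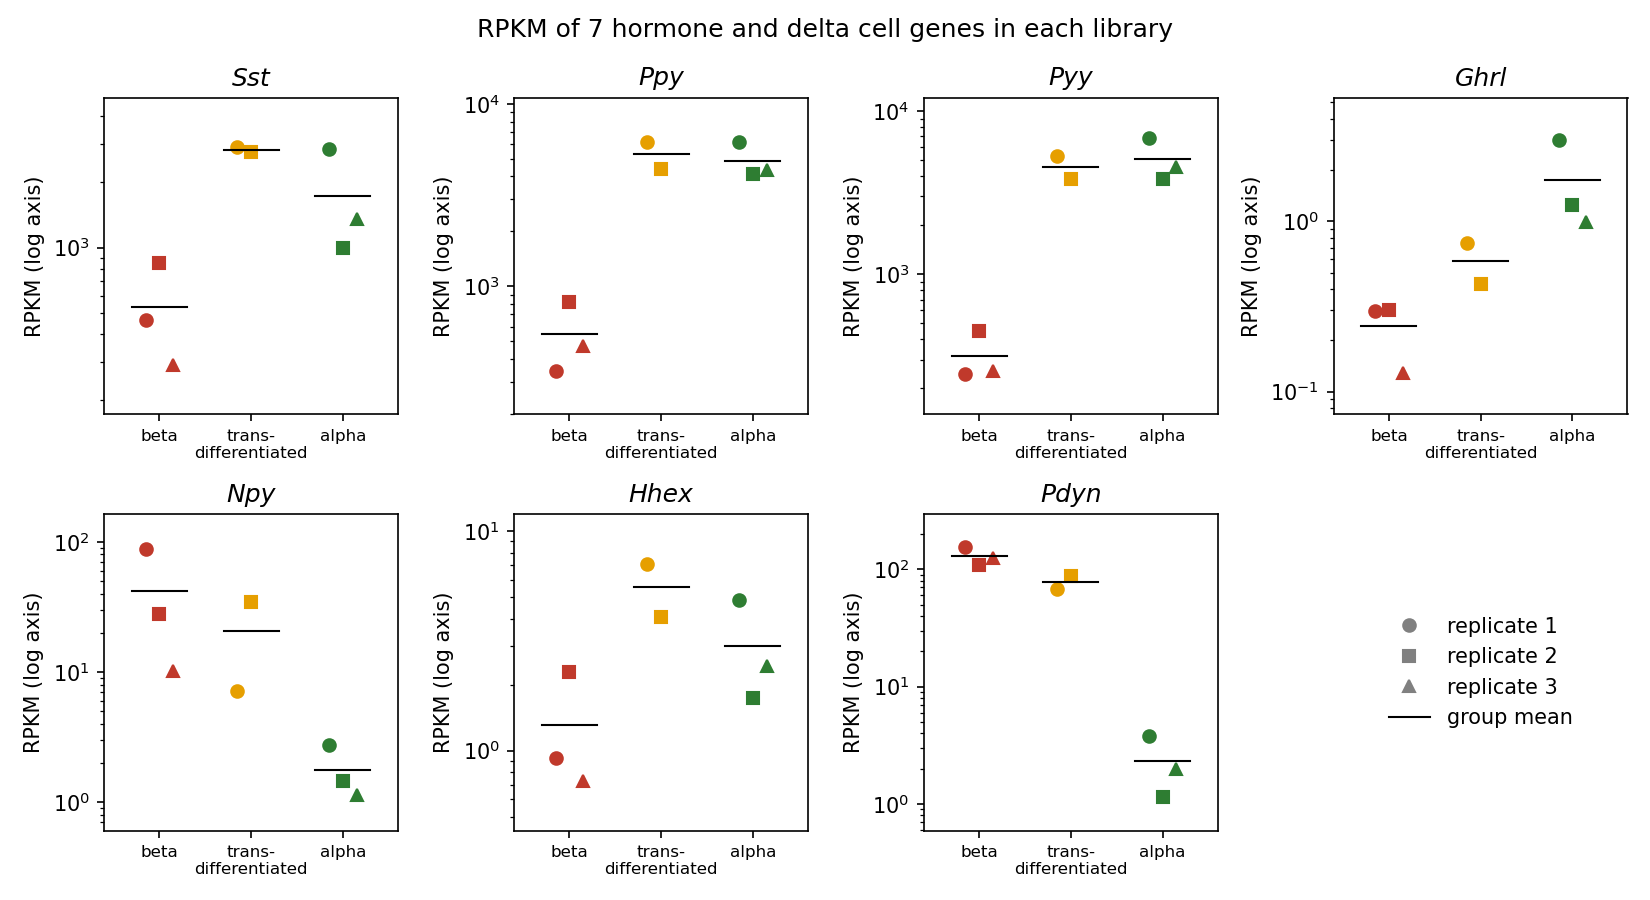
RPKM of each gene on a log axis (points: libraries, by replicate; lines: group means) in beta, transdifferentiated and alpha cells. Ppy and Pyy are at 3829 RPKM or more in every alpha and transdifferentiated library and at 822 or less in every beta library, while Pdyn runs the other way.

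Somatostatin RNA was abundant in every library. Sst was at 465, 849 and 290 RPKM in beta replicates 1 to 3, at 2845, 1000.2 and 1357 RPKM in alpha replicates 1 to 3, and at 2885 and 2749 RPKM in transdifferentiated replicates 1 and 2. The beta libraries were the lowest and overlapped with neither other group, and alpha replicate 1 lay between the transdifferentiated libraries, away from the other 2 alpha libraries, whose titles, unlike those of these 3 libraries, carry the letter b. The group means were 535 ± 286 (SD, n = 3) in beta, 1734 ± 978 (SD, n = 3) in alpha and 2817 ± 96.8 (SD, n = 2) in transdifferentiated cells, which made Sst the gene of rank 34, 14 and 11 by mean RPKM in the respective group. In such sorted pools, fewer cells of a type and less RNA per cell cannot be told apart.

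The alpha libraries exceeded the beta libraries in Sst by 1.78 on the log2 scale (SE 0.49, adjusted p = 0.0237). The call was lost without beta replicate 1 (log2 fold change 1.71, adjusted p = 0.0632), without beta replicate 3 (1.18, adjusted p = 0.173) and with no filter on low values (adjusted p = 0.0796). The log2 fold change was 1.36 without alpha replicate 1, the highest alpha library. Sst rose in transdifferentiated against beta cells by 2.58 on the log2 scale (SE 0.53, adjusted p = 0.0273). That call was lost in 8 of 20 alternatives, including the letter b as a term (2.18, adjusted p = 0.0581) and leaving out either transdifferentiated library (adjusted p = 0.105 and 0.0632), beta replicate 1 (adjusted p = 0.0806) or beta replicate 3 (log2 fold change 2.06, adjusted p = 0.113), and the log2 fold change stayed between 2.04 and 2.94. Transdifferentiated and alpha cells did not differ beyond their spread (log2 fold change 0.80, SE 0.53, adjusted p = 0.299). Without alpha replicate 1 the log2 fold change was 1.27 (adjusted p = 0.0586).

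Hhex, the transcription factor gene of delta cells, followed Sst at a far lower level. It was at 0.922, 2.29 and 0.727 RPKM in beta replicates 1 to 3, 4.84, 1.75 and 2.44 in alpha replicates 1 to 3, and 7.12 and 4.09 in transdifferentiated replicates 1 and 2. Beta replicate 2 was above alpha replicate 2, so these groups overlapped, whereas both transdifferentiated libraries were above all beta libraries. The transdifferentiated values rested on 17 reads in each library, against 20 to 94 reads in beta and 45 to 120 in alpha libraries.

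No difference in Hhex passed the test. The log2 fold change was 1.80 for transdifferentiated against beta cells (SE 0.49, adjusted p = 0.0561), 0.94 for alpha over beta cells (SE 0.45, adjusted p = 0.132) and 0.86 for transdifferentiated against alpha cells (SE 0.49, adjusted p = 0.231). The first of these passed without beta replicate 2 (2.16, adjusted p = 0.044), without alpha replicate 1 (1.83, adjusted p = 0.0477), without the sex term (adjusted p = 0.0371) and with the 4 sets of libraries of the same sex and letter as a term, an alternative chosen after seeing the data (1.41, adjusted p = 0.0322), and the second passed without beta replicate 2 (1.27, adjusted p = 0.0471).

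**Figure D2:**
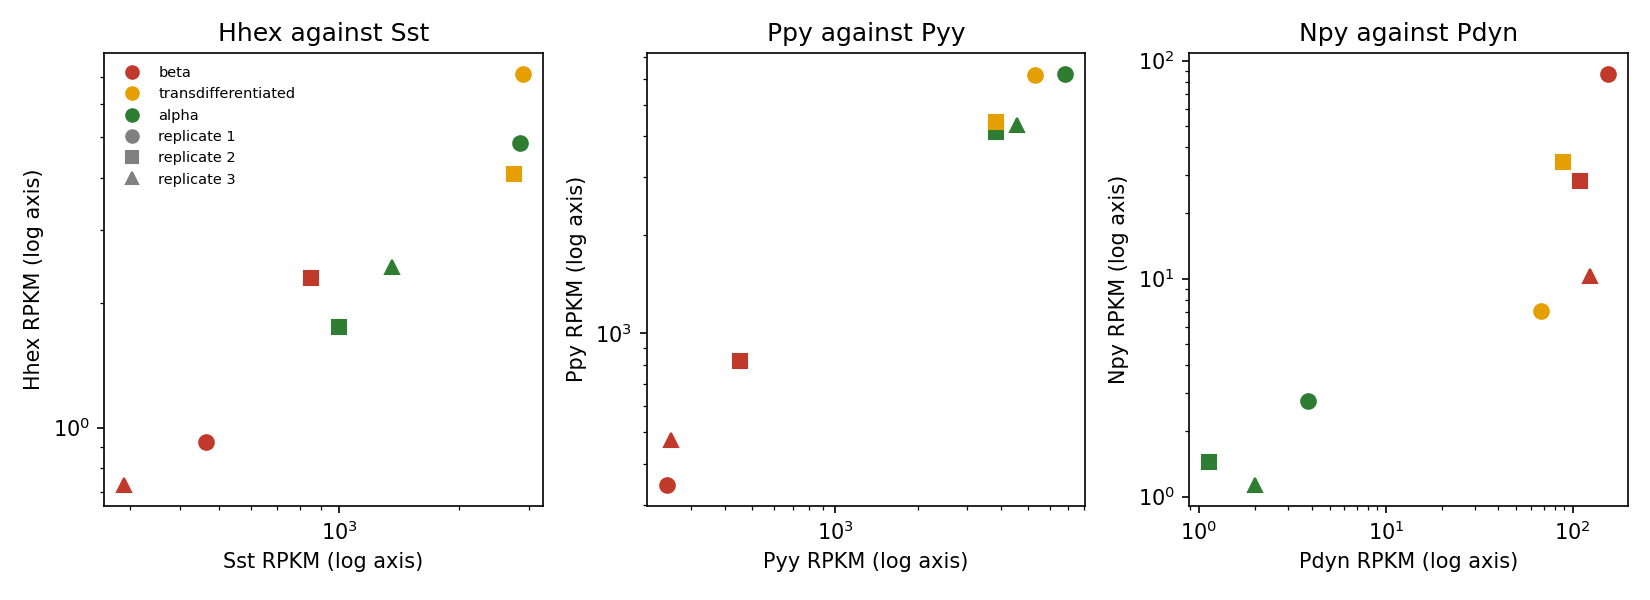
Each panel plots 2 genes against each other in RPKM, on log axes, with 1 point per library (colour: cell group; shape: replicate). Hhex follows Sst and Ppy follows Pyy across groups, and Npy varies widely among beta libraries at similar Pdyn.

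The ratio of Sst to Hhex in RPKM varied less than either gene. It was 405 and 672 in the transdifferentiated libraries, 504, 371 and 398 for beta cells and 587, 572 and 556 for alpha cells, so the transdifferentiated pair spanned most of the range of the others and exceeded it at the top. The ratio of Sst to Rbp4, the retinol carrier gene that is also high in delta cells, set the alpha libraries apart. It was 2.72 to 8.22 in the alpha libraries, 13.2 to 22.6 for beta cells, and 14.4 and 13.0 for transdifferentiated cells, which overlapped the beta range.

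Other delta cell genes were fixed as a list of 10, of which 4 passed the filter on low values. Rbp4, Ghsr and Casr rose in transdifferentiated against beta cells and 1 gene did not pass. The median log2 fold change of the 4 was 1.21, beside 0.09 over all genes. Rbp4 was at 200 and 212 RPKM in transdifferentiated, 20.6 to 39.2 in beta and 305 to 368 in alpha libraries (log2 fold change 2.97 against beta cells, adjusted p = 0.00282). Ghsr, the ghrelin receptor gene, was at 3.08 and 2.19 RPKM in transdifferentiated (17 and 21 reads), 0.205 to 0.601 in beta and 0.544 to 1.48 in alpha libraries, and transdifferentiated cells were above both beta cells (1.89, adjusted p = 0.0248) and alpha cells (1.26, adjusted p = 0.0422). Since no beta library reached 1 RPKM, Ghsr passed the filter through the groups in which it is higher, and with no filter both calls were lost (adjusted p = 0.0608 and 0.0879). Casr, the calcium-sensing receptor gene, was also above both (0.53 and 0.44, adjusted p = 0.0357 and 0.0308), and with no filter both of its calls were lost too (adjusted p = 0.0643 and 0.0501). Against beta cells, alpha cells were higher for 2 of the 4, led by Rbp4 (3.70), and 2 did not pass. Summed over the 10 genes, the transdifferentiated libraries reached 243 and 247 RPKM, those of alpha cells 336 to 396 and those of beta cells 45.4 to 66.1, most of it Rbp4, and Nkx6-3 was at 0 in both transdifferentiated libraries.

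Pancreatic polypeptide and peptide YY RNA in transdifferentiated cells lay within or close to the range of alpha cells. Ppy was at 344, 822 and 472 RPKM in beta replicates 1 to 3, at 6215, 4126 and 4322 RPKM in alpha replicates 1 to 3, and at 6155 and 4419 RPKM in transdifferentiated replicates 1 and 2. Pyy was at 245, 452 and 255 RPKM in the beta, 6807, 3833 and 4547 RPKM in the alpha, and 5283 and 3829 RPKM in the transdifferentiated libraries, in the same order of replicates. For both genes every beta library was below every other library, and the alpha and transdifferentiated libraries overlapped. By mean RPKM Ppy and Pyy ranked 4 and 3 among all genes in alpha cells, 6 and 7 in transdifferentiated cells and 32 and 61 in beta cells.

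Against beta cells, Ppy was higher by 3.18 in alpha cells (SE 0.35, adjusted p = 0.00047) and by 3.32 in transdifferentiated cells (SE 0.38, adjusted p = 0.00538) on the log2 scale. Pyy was higher by 4.0 (SE 0.33, adjusted p = 0.000128) and 3.88 (SE 0.36, adjusted p = 0.00303). The calls against beta cells held in all 20 alternatives for alpha cells, and in 19 of 20 for transdifferentiated cells, the exception being a fit of the 5 libraries of those 2 groups alone (adjusted p = 0.0768 for Ppy and 0.0716 for Pyy). Mean Ppy was 8.95-fold and 9.68-fold, and mean Pyy 16.0-fold and 14.4-fold, above the beta mean in alpha and transdifferentiated cells.

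Transdifferentiated and alpha cells did not differ beyond their spread in Ppy (log2 fold change 0.14, SE 0.38, adjusted p = 0.814) or Pyy (-0.12, SE 0.36, adjusted p = 0.837). Quantile normalization, which forces 1 distribution on all libraries, gave -0.96 for Ppy (adjusted p = 0.266) and -1.68 for Pyy (adjusted p = 0.0231), so the Pyy comparison depends on that setting.

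Within a library the balance of the family members differed between groups. The ratio of Ppy to Pyy in RPKM, a scale that corrects for gene length, was 1.40, 1.82 and 1.86 in the beta, 1.16 and 1.15 in the transdifferentiated and 0.913, 1.08 and 0.951 in the alpha libraries. The 3 groups did not overlap in this ratio, which was not tested. The ratio of Pyy to Sst was lowest in the beta libraries (0.527 to 0.879) and highest in the alpha libraries (2.39 to 3.83), with 1.83 and 1.39 in the transdifferentiated libraries between them. Of all RPKM, Sst, Ppy and Pyy together made up 3.47% and 2.54% in the transdifferentiated libraries, 2.24% to 3.59% in the alpha libraries and 0.211% to 0.488% in the beta libraries.

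Other genes known from PP cells were fixed as a list. Of the 8, 7 passed the filter; 2 rose in transdifferentiated against beta cells, 5 did not pass, and the median log2 fold change was 0.29 beside 0.09 over all genes. The 2 were Etv1, a transcription factor gene (log2 fold change 1.67, adjusted p = 0.00303), and Sertm1, a membrane protein gene (1.25, adjusted p = 0.0211). Both were highest in alpha cells, where Sertm1 was at 6.49 to 6.84 RPKM against 0.4999 and 1.15 in transdifferentiated (2 and 8 reads) and at most 0.160 in beta libraries. Alpha cells were higher than beta cells for Sertm1 (3.79), Etv1 (3.31) and Thsd7a (2.35) and lower for Slitrk6 (-2.05), Entpd2 (-2.50) and Cartpt (-1.0). Sertm1 and Thsd7a reached 1 RPKM in no beta library and passed the filter through the alpha libraries, the group in which they are high. With no filter both were still called in alpha against beta cells (adjusted p = 0.000299 and 0.00136), whereas Sertm1 in transdifferentiated against beta cells was not (adjusted p = 0.0579).

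**Figure D3:**
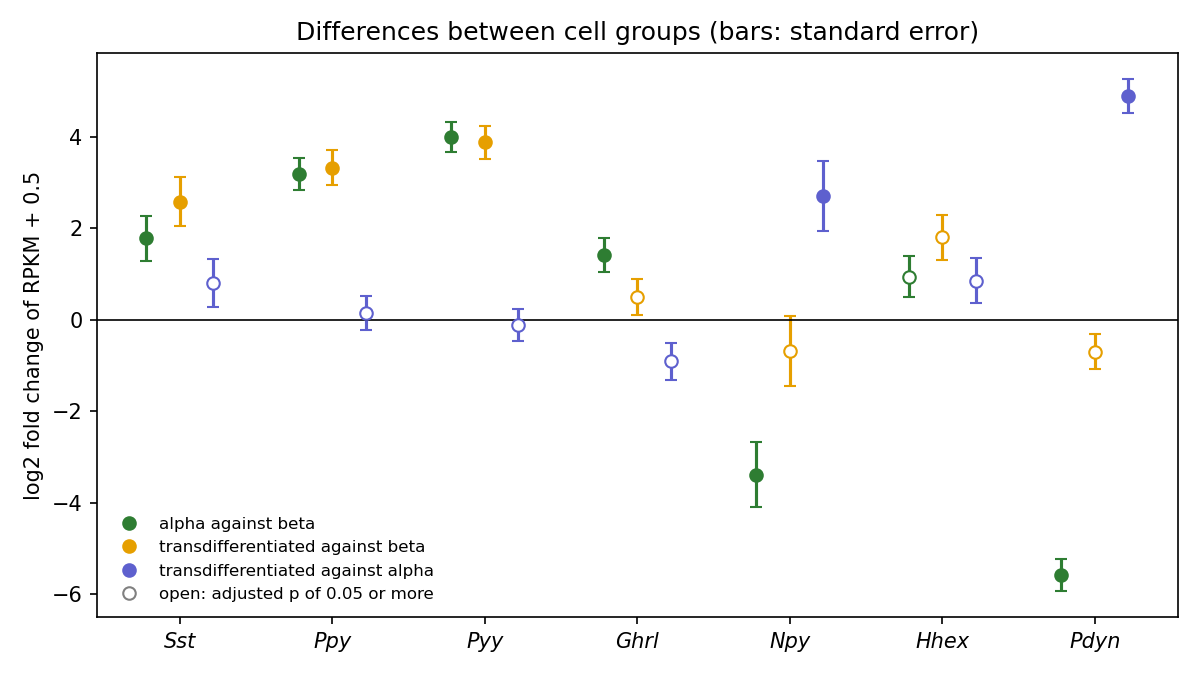
Log2 fold change of RPKM + 0.5 for each gene in 3 comparisons (bars: standard error; filled: adjusted p under 0.05). Against beta cells, Ppy and Pyy lie between 3.18 and 4.0 in both other groups, and Pdyn lies at -5.59 in alpha but at -0.70 in transdifferentiated cells.

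Ghrelin RNA was near the limit of detection. Ghrl was at 0.298, 0.303 and 0.129 RPKM in beta replicates 1 to 3 (6, 7 and 2 reads), at 3.01, 1.24 and 0.986 RPKM in alpha replicates 1 to 3 (42, 18 and 15 reads), and at 0.745 and 0.428 RPKM in transdifferentiated replicates 1 and 2 (1 read each). The alpha libraries were above all others, and the transdifferentiated values, each of a single read, say little about the level. Ghrl differed between alpha and beta cells by 1.41 on the log2 scale (SE 0.37, adjusted p = 0.02), with a ratio of mean RPKM of 7.18. As Ghrl reached 1 RPKM in alpha replicates 1 and 2 alone, the filter kept it only through the group in which it is high. With no filter the adjusted p was 0.0457. The call was lost without beta replicate 3 (0.98, adjusted p = 0.146) and with quantile normalization (adjusted p = 0.059). Neither comparison of the transdifferentiated cells passed (0.50, adjusted p = 0.433 against beta cells and -0.92, adjusted p = 0.129 against alpha cells), except that with the letter b as a term the difference from alpha cells did (-1.35, adjusted p = 0.0498).

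Of a list of 5 other epsilon cell genes, 2 passed the filter and neither was called by limma in transdifferentiated against beta cells (0 with an unadjusted p under 0.05). Mboat4, the gene of the enzyme that adds a fatty acid to ghrelin, was at 0.874 and 0 RPKM in the transdifferentiated (2 reads and 0) and at most 0.632 RPKM in the other libraries. Frzb, which encodes a secreted Wnt antagonist, was at 55.9 and 36.1 RPKM in transdifferentiated, 47.4 to 53.9 in beta and 1.24 to 3.09 in alpha libraries, the reverse of Ghrl. In alpha against beta cells both tested genes were lower, Frzb (log2 fold change -4.65) and Acsl1, an acyl-CoA synthetase gene (-0.75).

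Prodynorphin RNA separated beta from alpha cells more than any other of the 7 genes. Pdyn was at 154, 109 and 124 RPKM in beta replicates 1 to 3, at 3.81, 1.14 and 1.99 RPKM in alpha replicates 1 to 3, and at 67.9 and 88.4 RPKM in transdifferentiated replicates 1 and 2. The alpha libraries were the lowest by far, and the transdifferentiated libraries lay just below the beta libraries without overlap. Alpha cells held 1.80% of the beta mean, a difference of -5.59 on the log2 scale (SE 0.35, adjusted p = 3.79e-05). Transdifferentiated cells held 60.7% of it, a difference that did not pass (-0.70, SE 0.38, adjusted p = 0.251). Transdifferentiated cells were above alpha cells by 4.89 on the log2 scale (SE 0.38, adjusted p = 0.000228). Both calls held in all 20 alternatives. The difference from beta cells passed too with the letter b as a further term (-1.20, adjusted p = 0.0445) and with the sets of sex and letter as a term (-1.22, adjusted p = 0.0482).

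Neuropeptide Y RNA varied widely among the libraries of the beta and transdifferentiated groups. Npy was at 87.2, 27.99 and 10.2 RPKM in beta replicates 1 to 3, at 2.74, 1.45 and 1.13 RPKM in alpha replicates 1 to 3, and at 7.10 and 34.2 RPKM in transdifferentiated replicates 1 and 2. The alpha libraries were below all others, whereas the transdifferentiated libraries overlapped the beta range, with transdifferentiated replicate 1 (5 reads) below every beta library. The SD was 96.4% of the mean in beta cells, against 17.7% for Pdyn in the same libraries. In the beta group the 2 female libraries were above the male one, as the female transdifferentiated library was above the male one, whereas the female alpha library was the lowest of its group.

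Npy differed between alpha and beta cells by -3.39 on the log2 scale (SE 0.72, adjusted p = 0.00851), a call that held in all 20 alternatives, with -2.10 without alpha replicate 3 as the smallest difference. Transdifferentiated cells exceeded alpha cells (2.71, SE 0.77, adjusted p = 0.0368). That call was lost in 12 of 20 alternatives, among them the letter b as a term (1.64, adjusted p = 0.0815), the sets of sex and letter as a term (1.52, adjusted p = 0.0503) and leaving out transdifferentiated replicate 1 (adjusted p = 0.0665) or 2 (2.07, adjusted p = 0.167), beta replicate 2 (adjusted p = 0.0525), alpha replicate 2 (adjusted p = 0.0767) or alpha replicate 3 (1.59, adjusted p = 0.104), and limma voom on the recovered reads (3.38, adjusted p = 0.0707). Against beta cells the difference did not pass (-0.69, SE 0.77, adjusted p = 0.581).

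**Figure D4:**
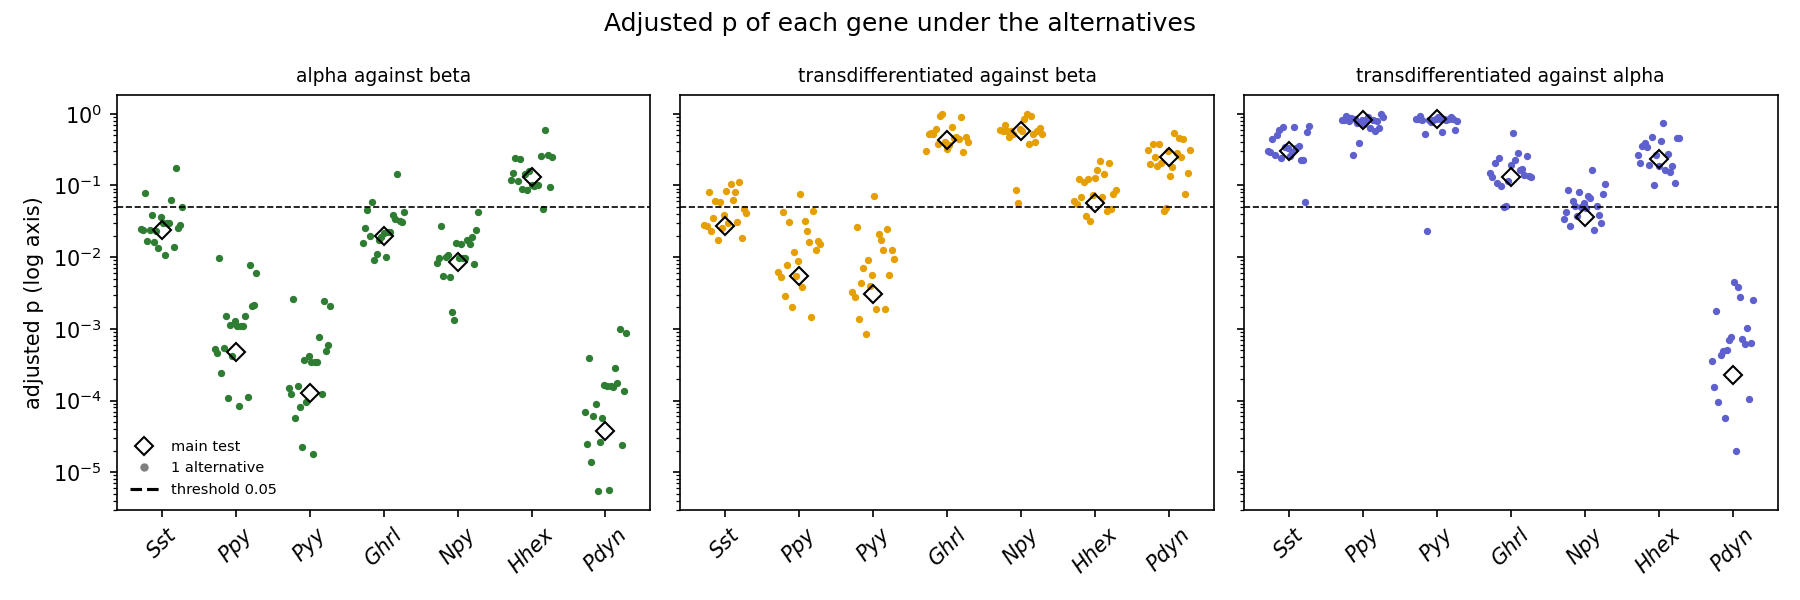
Adjusted p on a log axis for each gene under the main test (diamonds) and each of 19 or 20 alternatives (dots), with the threshold of 0.05 dashed. In alpha against beta cells all dots of Ppy, Pyy, Npy and Pdyn are under the threshold, while those of Sst in transdifferentiated against beta cells (12 of 20 under it) and Npy in transdifferentiated against alpha cells (8 of 20) lie on both sides.

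Some libraries were high or low for several of these genes at once. Alpha replicate 1 held the highest value of its group for all 7 genes. It also held the most Gcg of the alpha libraries (44.5% of all RPKM against 42.6% and 43.5%), while its acinar markers were the lowest of all libraries (summed RPKM 37.1 against 569 and 2400 in the other alpha libraries). Beta replicate 2 held the highest value of its group for Sst, Ppy, Pyy, Ghrl and Hhex, and also the most Gcg (0.408% of all RPKM against 0.106% and 0.129%) and the most acinar RNA (summed RPKM of 9 markers 3190 against 108 and 1522). The part of these differences in the results was not tested. Without beta replicate 2 the log2 fold changes of transdifferentiated against beta cells were 2.94 for Sst, 3.69 for Ppy and 4.17 for Pyy. Immune markers were high in the same group as Npy and Pdyn: their summed RPKM was 91.2 to 107 in the beta libraries, 9.58 to 27.1 in the alpha libraries and 20.05 to 32.4 in the transdifferentiated libraries. Of 8 such genes 6 were tested, and all 6 were called higher in beta than in alpha cells, while 5 were called lower in transdifferentiated than in beta cells. Over all genes those shares were 26.7% and 2.90%. Lyz2, Ctss, H2-Aa and H2-Eb1 reached 1 RPKM in no alpha library. They passed the filter only through the other groups, in which they are higher, so the count of 6 was partly set by the filter. Against alpha cells 2 of the 6 (Cd74 and H2-Aa, antigen presentation genes) were called higher in transdifferentiated cells, the direction of Npy and Pdyn, and 4 did not pass. Of all genes, 23.2% were called higher there. Ptprc and Adgre1, which define blood cells and macrophages, were at 0 in both transdifferentiated libraries, whose low depth could miss them. Duct markers were at a summed RPKM of 715 to 1741 in the alpha libraries, 272 to 409 in the beta libraries and 270 to 325 in the transdifferentiated libraries, most of it Spp1 in each group. Of 5 duct markers tested in alpha against beta cells, 2 were called higher (Spp1 and Muc1), 1 lower (Krt7) and 2 did not pass. Over all genes 16.9% were called higher and 26.7% lower. Krt7 was at 29.1 to 32.1 RPKM in alpha and 73.8 to 83.3 in beta libraries. The part of immune and duct markers in the results was not tested.

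Across the 8 libraries, which form 3 groups and thus share the group differences, the Pearson correlation of log2(RPKM + 0.5) was 0.995 between Ppy and Pyy, 0.962 between Sst and Hhex and 0.890 between Npy and Pdyn. Between the first 4 of these genes and the last 2 it was negative, from -0.67 to -0.18. Among all tested genes, those most like Ppy were Arg1, the arginase gene (0.995), Pyy, and Dnajb4, a chaperone gene (0.991). Those most like Pyy were Ppy, Smad7, an inhibitor of TGF-beta signalling (0.994), and Arg1 (0.993). Arg1 was at 2.86 RPKM in beta, 19.8 in alpha and 17.5 in transdifferentiated cells on average.

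Sst was most like Hhex, followed by Dgkb, a diacylglycerol kinase gene (0.960), and Atp5g2 (0.952). Hhex was most like Mest (0.987), Sst and Ghsr (0.954). Pdyn was most like Sv2a, a synaptic vesicle protein gene (0.998), Kcnip1, a potassium channel interacting protein gene (0.998), and Nell1 (0.997), of which Kcnip1 fell from 18.4 RPKM in beta to 0.675 in alpha cells with 14.2 in transdifferentiated cells on average. Npy was most like Sall1 (0.992), Atp6v1h, a subunit gene of the vesicle proton pump (0.991), and Mib2 (0.986). Ghrl was most like Ipp (0.974), Gm648 (0.972) and Krt1 (0.966), all measured beside Ghrl values of 1 to 42 reads.

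Of the receptor genes for these peptides, 4 passed the filter, and 3 of them rose in transdifferentiated against beta cells: Sstr2 (1.98), Ghsr (1.89) and Sstr1 (1.44). None of these 3 reached 1 RPKM in a beta library, so they passed the filter only through the other groups, and with no filter only Sstr2 was called (adjusted p = 0.0173, against 0.0608 for Ghsr and 0.0579 for Sstr1). Sstr2, a somatostatin receptor gene, was at 1.5 and 2.37 RPKM in transdifferentiated, at most 0.153 in beta and 13.9 to 16.9 in alpha libraries. Sstr3 was at 36.1 to 41.2 RPKM in transdifferentiated and beta libraries and at 21.4 to 23.5 in alpha libraries, and it was lower in alpha than in beta cells (-0.83), where Sstr2 (4.76) and Sstr1 (1.20) were higher. The receptor genes of the neuropeptide Y family were at most 0.223 RPKM in any library (Npy1r in alpha replicate 2), and Npy2r, Npy5r and Npy6r were at 0 in all. Oprk1, the kappa opioid receptor gene, was above 0 in 1 library only, beta replicate 1.

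Peptide hormones are cut from their precursors by convertases, of which Pcsk1 and Pcsk2 are the main ones of islet cells. Of 13 processing genes 11 passed the filter; in transdifferentiated against beta cells 1 rose (Furin, 0.40, adjusted p = 0.042, or 0.0582 with no filter), 1 fell (Pcsk1, -0.87, adjusted p = 0.00999) and 9 did not pass, with a median log2 fold change of 0.04 beside 0.09 over all genes. Pcsk1 was at 113 and 102 RPKM in transdifferentiated, 171 to 221 in beta and 1.86 to 2.28 in alpha libraries, so it followed Pdyn rather than Ppy in its order of groups. In alpha against beta cells 3 of the 11 were higher and 5 lower, led by Pcsk1 (-6.25), Pcsk6 (-1.61) and Pcsk1n, the gene of a convertase inhibitor (1.58). Pcsk2 was higher in alpha cells, at 610 to 741 RPKM against 352 to 449 in beta libraries (0.77, adjusted p = 0.0038), and was at 423 and 421 in the transdifferentiated libraries.

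Of 33 other hormone and neuropeptide genes 14 passed the filter, and 1 rose in transdifferentiated against beta cells while 13 did not pass, with a median log2 fold change of -0.26. The 1 was Edn3, the endothelin-3 gene (3.15, adjusted p = 0.00163), at 6.84 and 7.29 RPKM in transdifferentiated, 49.1 to 53.7 in alpha and 0.220 to 0.738 in beta libraries. Edn3, Nts, Gast and Cort reached 1 RPKM in no beta library, and Cck and Sct reached it in alpha libraries alone. These genes passed the filter only through groups in which they are higher. The counts and medians of this list rest partly on them. With no filter Edn3 was still called in transdifferentiated against beta cells (adjusted p = 0.0133). In alpha against beta cells 6 were higher, led by Edn3 (5.94), Nts, the neurotensin gene (5.41), and Gal, the galanin gene (2.10), and 1 was lower (Cartpt, -1.0). In transdifferentiated against alpha cells 6 were lower, among them Nts (-3.31), Gal (-3.04) and Edn3 (-2.79). The median of the 14 in this comparison was -1.22, beside 0.17 over all genes. Cort, the cortistatin gene and closest relative of Sst, was at most 1.57 RPKM in any library and was not called.

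Of 17 transcription factor genes of islet endocrine cells 16 passed the filter, and in transdifferentiated against beta cells 7 rose, 1 fell (Mafa, -1.47) and 8 did not pass, with a median log2 fold change of 0.58. The rise was largest for the alpha cell genes Irx2 (3.73) and Irx1 (3.20).

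None of the 7 genes passed a test for sex. In limma 0 of 7 were called between female and male libraries (0 at an unadjusted p under 0.05, and 0 with limma voom), where 0.00759% of all genes tested were called higher in females and 0.0380% lower (0.0456% in all). The largest difference was that of Npy, at 1.18 on the log2 scale toward females (SE 0.62, adjusted p = 0.843). The alpha to beta difference was not called different between sexes for any of the 7 (1 at an unadjusted p under 0.05, which was Npy with -2.85, SE 0.998, adjusted p = 0.999), where 0% of all genes were called. That fit had 1 or 2 libraries for each sex and group.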

How the data were processed

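The authors deposited 1 table of RPKM values for 8 libraries. The build GRCm38.p4 and the tools edgeR 3.14.0, featureCounts and STAR 2.5 were used, per the submitters' processing notes. Neither the annotation nor the strand setting is stated in the labels. The TruSeq v2 kit, named in the labels' protocols, does not mark strand, so overlapping genes on opposite strands share reads. The 4 entries with repeated names were left out. With GENCODE M21 exon lengths 78.5% of matched genes gave whole reads in all libraries (within 0.01), and the other lengths were solved from the steps of each gene (26778 of 26786 genes). Libraries of a group differed beyond counting noise (chi-square per degree of freedom 3.49 to 35.3), so none repeated another library and each was counted as a sample, though repeat preparations of 1 pool could differ as much.

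The main test was limma 3.58.1 in R 4.3.3 (lmFit, eBayes with a trend) on log2(RPKM + 0.5), over genes with at least 1 RPKM in at least 2 libraries, with group and sex as terms. It was tested on simulated data of independent libraries. Calls of unchanged genes exceeded the threshold there in both comparisons of the shallow transdifferentiated libraries. This held among low and well expressed genes and also with limma voom. In alpha against beta cells such calls did not exceed the threshold, but repeat preparations of a pool were not simulated. No replicate numbers are shared between groups, so libraries were not paired in the main test. The genes, gene lists and tests were chosen with earlier results of these data known. All 7 genes were named, as were the 3 genes with the highest correlation to each and the up to 3 called genes of each list with the largest change against beta cells; others were chosen after their values were seen. Some genes that this rule names are not reported here.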

Additional observations from a re-analysis of the deposited data

How the results depend on the processing

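Each of the 7 genes was tested again under 19 or 20 alternatives: 2 pseudocounts, 2 filters, 2 scalings, no sex term, a term for the letter b in some titles, no trend, only the 2 groups compared, limma voom, each library left out and, chosen after seeing the data, the 4 sets of libraries of the same sex and letter as a term. Hhex and Ghrl had 19, since a mean RPKM of at least 5 removed them. Of the 7 genes, 0 were called in transdifferentiated against beta cells when only those 5 libraries were fitted. The 2 called against alpha cells became 1 with no filter, with median-ratio scaling, without the trend and with limma voom (1 in each), and 1 to 2 with a library left out. With the sets as a term 5 of the 7 genes were called against beta cells (Hhex and Pdyn were added) and 1 against alpha cells (Npy was lost). The 3 against beta cells became 2 to 4, and the 6 in alpha against beta cells 4 to 7, with a library left out. Calls over all genes also moved between alternatives, as given below for some of them. The counts of the 7 genes alone therefore do not set them apart. For the sets as a term, the fit of only the 2 groups and most fits with a library left out, calls over all genes are not given. The counts of the 7 genes in those fits are therefore no result about these genes. The difference of Ppy against alpha cells changed sign with median-ratio scaling (-0.10), quantile normalization (-0.96) and without transdifferentiated replicate 1 (-0.10), and that of Pyy without transdifferentiated replicate 2 (0.14) or alpha replicate 1 (0.11), and none of these 5 passed the test. With a library left out they ranged from -0.10 to 0.35 for Ppy and from -0.43 to 0.14 for Pyy. Median-ratio scaling moved the median of all genes from 0.09 to -0.06 against beta cells and from 0.17 to -0.05 against alpha cells, and the calls from 1198 higher and 382 lower to 842 and 938, and from 3053 and 879 to 1575 and 1594. Quantile normalization gave 631 and 512 and, for alpha against beta cells, 2739 and 2741 in place of 2229 and 3514. Over all genes the calls against beta cells were 589 and 288 with no filter, 632 and 231 with a mean RPKM of at least 5, 504 and 74 with limma voom and 189 and 46 without beta replicate 3. The causes were not tested. In transdifferentiated replicates 1 and 2 Ghrl had 1 read each, Hhex 17 each and Npy 5 and 42. The part of low reads in these results was not tested. The main test was not paired, since the labels give no replicate numbers that groups share and do not say that the sets are pairs. The fit with the sets as a term compares libraries within sets defined by sex and letter alone. The correlations of single genes with the 7 were recomputed without each library, an alternative chosen after seeing the data, and the lowest was 0.928.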
